A study of Mus musculus with 8 samples.

Results

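Transcripts of 9 genes that mark monocyte-derived and lipid-associated macrophages were examined in the livers of obese male db/db mice. The 9 genes (Trem2, Gpnmb, Spp1, Cd9, Itgax, Itgam, Lgals3, Ly6c2 and Clec7a) were chosen by symbol from 21532 genes in the table of normalized read counts, and all 9 were found and tested. Every mouse of both groups was db/db, which lacks a working leptin receptor and becomes obese and diabetic. Starting at 8 weeks of age, 4 mice received control and 4 mice AF1 peptide, each dosed at 5 mg/kg by injection behind the eye, 2 times a week over 5 weeks. AF1 peptide is a synthetic peptide derived from ERα, with internal stretches left out, and joined to a FITC-labeled, cell-penetrating TAT sequence. RNA came from frozen whole liver with 1 library per mouse, and lean mice were not part of the comparison. The comparison asks whether the recruited macrophage transcripts differed between livers with and without AF1 peptide.

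The liver holds resident macrophages, the Kupffer cells, and in steatosis it also takes in blood monocytes that mature into macrophages. Some of these recruited cells gather where lipid and dying cells accumulate, load lipid and switch on a lysosomal and lipid-handling program, and they are then called lipid-associated macrophages. TREM2, a surface receptor for lipids and lipoproteins, defines them together with the lysosomal glycoprotein GPNMB, the secreted protein osteopontin (Spp1) and the tetraspanin CD9. In whole liver, fewer cells of a type and less RNA per cell cannot be told apart. Several of these genes are not specific to macrophages. Spp1 and Cd9 are also expressed by biliary epithelium, Itgam by neutrophils and Itgax by dendritic cells.

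A depth of 35260283 to 45117528 reads was recovered in control mice and of 23031880 to 43978158 in AF1 peptide mice, where replicate 2 was the shallowest. AF1 peptide replicate 1 stood apart from the other livers of its group, with a chi-square statistic of 231 to 312 per degree of freedom against them, while all other pairs within a group had 14.6 to 101.5. It also had the lowest share of reads from 13 mitochondrial genes (20.8%, where the remainder of its group had 34.3 to 37.8% and control mice 22.4 to 34.3%). Results are therefore also given without this mouse. The tissue label could be checked on hepatocyte transcripts. Ttr and Apoa1, which encode secreted plasma proteins, had at least 171433 and 70154.7 normalized counts in every library, both lowest in AF1 peptide replicate 1. Hepatocyte genes did not all take this direction. Cps1, a urea cycle enzyme, had 34576 normalized counts in AF1 peptide replicate 1 against 6605 to 13727 in control mice, and the mean log2 value of the 8 hepatocyte genes was highest in this mouse (16.57). The summed normalized count of these 8 genes was lowest in it (1885590, against 2134630 to 2631330 in all other mice).

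None of the 9 markers was called different between the groups (0 of 9 by limma, where a call needed p below 0.05 before adjustment together with a change above 1.3-fold), while 3.69% of all 15989 genes tested were called. At an unadjusted p value under 0.05 alone, 0 of 9 markers passed in limma, 0 in edgeR and 0 in DESeq2, where 6.19% of all genes tested passed in limma. The adjusted p values of the markers ranged from 0.763 to 0.993 in limma with Benjamini-Hochberg adjustment over all genes tested, and no gene of the table had an adjusted p value under 0.05 in that test (0 genes, with 990 at an unadjusted p value under 0.05 in limma and 3 at an adjusted p value under 0.05 in DESeq2). The counts of control and AF1 peptide mice overlapped in every marker (0 of 9 without overlap, against 3.9% of all genes tested). Mice of the same group differed by up to 8.76-fold.

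**Figure D1:**
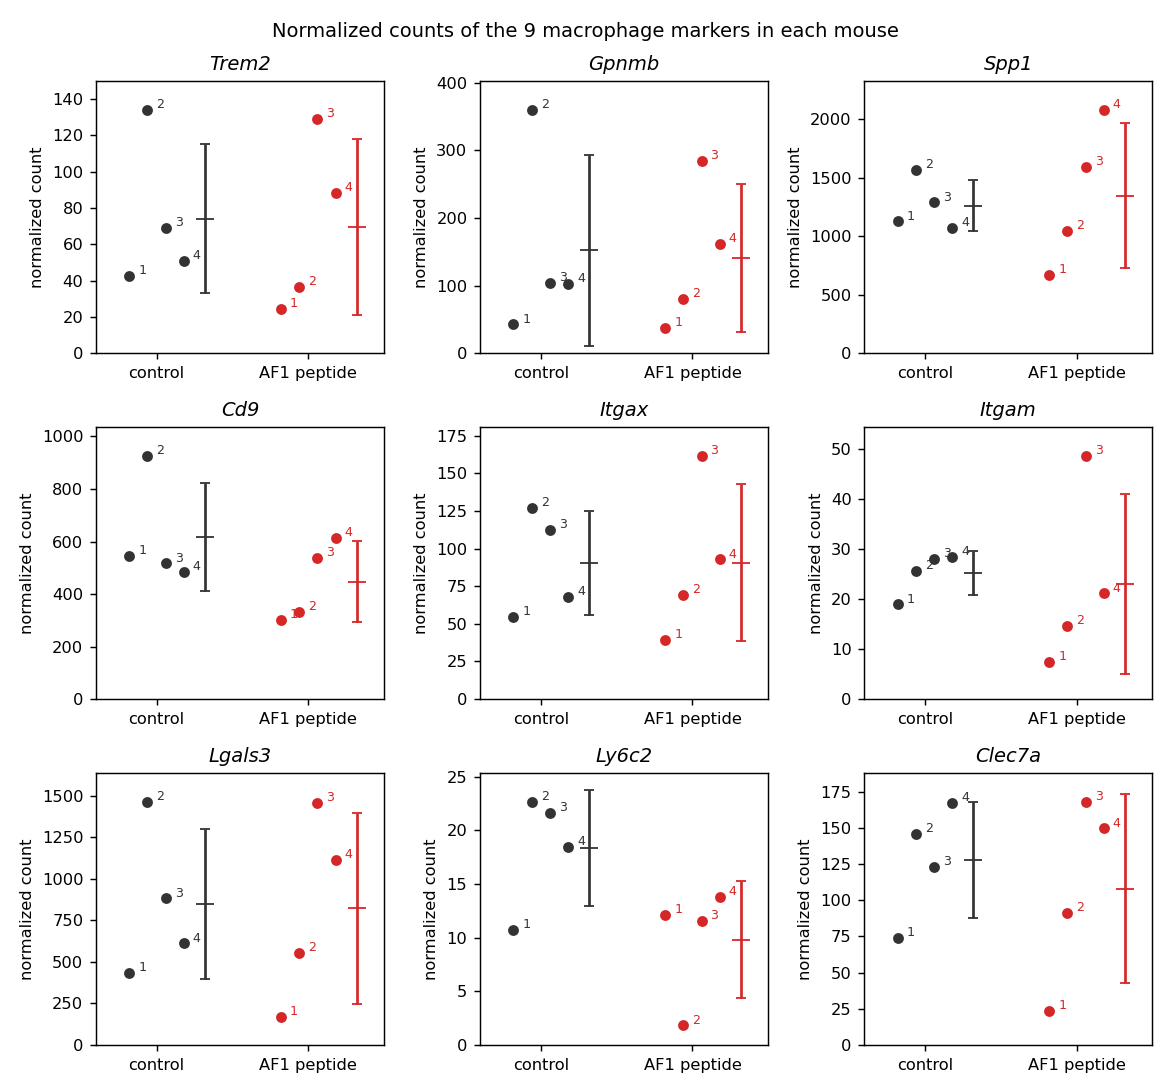
Normalized counts (vertical axis, linear from 0) of each of the 9 markers in control (black) and AF1 peptide (red) livers, with 1 point per mouse numbered by replicate and the mean ± SD of 4 mice beside the points. The groups overlap in every panel, and AF1 peptide replicate 1 is the lowest mouse in all panels except that of Ly6c2.

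The receptor Trem2 had 42.9, 134, 69.2 and 51.1 normalized counts in control replicates 1 to 4 and 24.3, 36.5, 129 and 88.2 in AF1 peptide replicates 1 to 4. The highest mice of both groups were alike, and 2 AF1 peptide mice lay below every control mouse. Its mean was 74.3 ± 41.3 normalized counts in control mice and 69.6 ± 48.5 with AF1 peptide (SD, n = 4 each). On the log2(normalized count + 1) scale this was a log2 fold change of -0.24 (standard error 0.52, 95% interval -1.39 to 0.90). For Trem2 this interval spans 0.382-fold to 1.87-fold. Gpnmb, the lysosomal glycoprotein, had the largest SD within groups of the 9 markers on the log2 scale, with 42.9, 359, 104 and 103 normalized counts in control replicates 1 to 4 and 37.3, 80.4, 285 and 162 in AF1 peptide replicates 1 to 4. Control replicate 2 and AF1 peptide replicate 3 were the highest mice of their groups. Control replicate 2 was above all AF1 peptide mice, and AF1 peptide replicate 3 was above all control mice but control replicate 2. The log2 fold change of Gpnmb was -0.06 (standard error 0.68, 95% interval -1.58 to 1.45).

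Trem2, Gpnmb, Itgax and Lgals3 shared their lowest mouse (AF1 peptide replicate 1) and their 2 highest mice (control replicate 2 and AF1 peptide replicate 3), while Ly6c2 shared only control replicate 2. The order of mice in Ly6c2 is uncertain, since its values came from only 1 to 23 reads per library. The sequences around the starts of these 5 genes are shown beside these orders. They run from 250 bases before to 50 bases after the gene's start in RefSeq (build GRCm38.p6), 5′ to 3′ on the gene's strand. All 9 markers had such an entry. Capitals mark matches, on either strand, to GAGGAAG, a core bound by the myeloid factor PU.1, or to TGANTCA, the site of the AP-1 factors, and the matches did not overlap each other.
Trem2 (chr17:48346151-48346450, plus strand): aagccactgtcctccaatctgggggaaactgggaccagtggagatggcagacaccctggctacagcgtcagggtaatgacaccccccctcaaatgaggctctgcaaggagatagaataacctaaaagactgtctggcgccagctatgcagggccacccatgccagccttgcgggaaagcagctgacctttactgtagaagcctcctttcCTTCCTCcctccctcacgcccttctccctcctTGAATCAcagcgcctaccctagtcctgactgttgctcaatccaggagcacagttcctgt
Gpnmb (chr6:49036268-49036567, plus strand): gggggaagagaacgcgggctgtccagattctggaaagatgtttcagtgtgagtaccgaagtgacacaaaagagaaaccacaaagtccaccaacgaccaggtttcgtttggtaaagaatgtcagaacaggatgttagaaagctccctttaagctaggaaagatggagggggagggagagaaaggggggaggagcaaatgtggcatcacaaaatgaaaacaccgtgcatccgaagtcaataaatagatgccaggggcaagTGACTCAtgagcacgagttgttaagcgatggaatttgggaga
Itgax (chr7:128129300-128129599, plus strand): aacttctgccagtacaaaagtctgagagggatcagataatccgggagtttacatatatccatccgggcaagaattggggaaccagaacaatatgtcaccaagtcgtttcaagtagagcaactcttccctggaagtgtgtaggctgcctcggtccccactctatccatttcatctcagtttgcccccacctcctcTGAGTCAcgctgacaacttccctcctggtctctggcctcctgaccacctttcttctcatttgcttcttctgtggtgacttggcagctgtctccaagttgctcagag
Lgals3 (chr14:47373610-47373909, plus strand): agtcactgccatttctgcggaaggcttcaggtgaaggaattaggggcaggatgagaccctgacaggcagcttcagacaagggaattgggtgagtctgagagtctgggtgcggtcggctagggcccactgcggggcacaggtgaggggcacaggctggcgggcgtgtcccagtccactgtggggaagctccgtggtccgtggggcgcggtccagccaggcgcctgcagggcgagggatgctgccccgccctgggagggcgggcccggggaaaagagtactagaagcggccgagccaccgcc
Ly6c2 (chr15:75111922-75112221, minus strand): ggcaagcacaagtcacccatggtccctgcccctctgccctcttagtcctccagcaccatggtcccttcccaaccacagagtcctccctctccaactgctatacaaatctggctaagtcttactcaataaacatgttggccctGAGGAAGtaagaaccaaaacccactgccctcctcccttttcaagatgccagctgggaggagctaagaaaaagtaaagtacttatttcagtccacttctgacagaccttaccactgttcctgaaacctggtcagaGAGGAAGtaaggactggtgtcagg
The window of Trem2 held 1 match to each of these motifs, those of Gpnmb and Itgax 1 match to TGANTCA, and that of Ly6c2 had 2 matches to GAGGAAG. The window of Lgals3 held neither, although its order of mice was like that of Trem2, Gpnmb and Itgax. The window of Itgam, not shown, also had 2 matches to GAGGAAG and no match to TGANTCA, and a window of Spp1 had 1 match to GAGGAAG. Itgam and Spp1 were lowest in AF1 peptide replicate 1, unlike Ly6c2. Among all 12 windows of the 9 markers, 5 (of 4 genes) held GAGGAAG and 3 (of 3 genes) held TGANTCA, where 13.6% and 7.81% of all 32851 promoter windows did. The 2 windows of Ly6c2 overlap and hold the same matches, which are counted in both. The E-box CACGTG, which factors of lysosomal genes bind, was in 0 of the 12 windows and in 7.15% of all windows. The motifs were chosen after the values were seen, and these matches describe the letters only.

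Transcripts of the secreted proteins osteopontin and galectin-3 had the highest levels per kilobase of the 9 markers. Spp1, which encodes osteopontin, had 1128, 1566, 1291 and 1070.3 normalized counts in control replicates 1 to 4 and 667, 1048, 1594 and 2079 in AF1 peptide replicates 1 to 4. The AF1 peptide mice enclosed the range of the control mice, with 2 mice below all and 2 above all control mice. The mean was 1264 ± 222 normalized counts in control mice and 1347 ± 619 with AF1 peptide (SD, n = 4 each), and the log2 fold change was -0.02 (standard error 0.30, 95% interval -0.68 to 0.64). The mean count of Spp1 was thus higher and its mean log2 value lower with AF1 peptide. Lgals3, which encodes the carbohydrate-binding protein galectin-3, had 431, 1462, 881 and 610.5 normalized counts in control and 166, 552, 1456 and 1112 in AF1 peptide replicates 1 to 4. The 8.76-fold range among the AF1 peptide mice was the widest of any marker in either group, and the highest mice of both groups were nearly equal. Its log2 fold change was -0.30 (standard error 0.61, 95% interval -1.64 to 1.05).

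Cd9, a tetraspanin that organizes integrins and other membrane proteins, had 544, 926, 517 and 485 normalized counts in control replicates 1 to 4 and 300.5, 332, 537 and 615 in AF1 peptide replicates 1 to 4. Control replicate 2 was high, and AF1 peptide replicates 1 and 2 were below every control mouse. The mean was 618 ± 207 normalized counts in control mice and 446 ± 154 with AF1 peptide (SD, n = 4 each). Its log2 fold change of -0.48 (standard error 0.27, 95% interval -1.07 to 0.11) had an unadjusted limma p value of 0.098, or 0.765 after Benjamini-Hochberg adjustment. Cd9 was called lower when the libraries were rescaled to equal totals (log2 fold change -0.57, unadjusted limma p value of 0.0481) and without AF1 peptide replicate 4 (-0.66).

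The integrins Itgax and Itgam encode CD11c and CD11b, which pair with the β2 chain on myeloid cells. Itgax had 54.4, 127, 112 and 67.8 normalized counts in control replicates 1 to 4 and 39.2, 69.4, 161 and 92.8 in AF1 peptide replicates 1 to 4. The means of both groups were nearly equal, at 90.4 ± 34.8 (SD, n = 4) and 90.7 ± 52.0 (SD, n = 4), and the log2 fold change was -0.09 (standard error 0.41, 95% interval -0.996 to 0.82). Itgam was low in all livers, with 19.0, 25.6, 28.1 and 28.5 normalized counts in control and 7.47, 14.6, 48.6 and 21.1 in AF1 peptide replicates 1 to 4. Control mice were close together, whereas AF1 peptide mice ranged over 6.51-fold. The 2 lowest values of Itgam each came from 8 reads (95% exact Poisson interval 3.45 to 15.8 reads, which covers counting error only). Its log2 fold change was -0.41 (standard error 0.47, 95% interval -1.45 to 0.62). Without AF1 peptide replicate 3, the mouse with the highest count, the log2 fold change of Itgam was -0.86 and it was called lower. Of the 50-base words of the Itgam transcripts, 66.3% also occur in an overlapping gene model (Gm49368) of GENCODE M21, so that its counts are uncertain. That model was not analysed here. Smaller shares of words also occur in transcripts of other genes for Spp1 (11.6%), Itgax (8.02%) and Cd9 (5.67%). Gene models on the opposite strand overlap Cd9, and the counts of these 3 markers share this limit to a lesser degree.

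Clec7a encodes Dectin-1, a pattern receptor for fungal glucans. It had 74.2, 146, 123 and 167 normalized counts in control replicates 1 to 4 and 23.3, 91.3, 168 and 149.7 in AF1 peptide replicates 1 to 4. AF1 peptide replicate 1 was far below all other mice, which ranged from 74.2 to 168. The log2 fold change of Clec7a was -0.50 (standard error 0.54, 95% interval -1.70 to 0.69), and without AF1 peptide replicate 1 it was 0.11. Ly6c2 marks inflammatory blood monocytes and is lost as they mature. It had the lowest counts of the 9 markers, with 10.7, 22.6, 21.6 and 18.4 normalized counts in control and 12.1, 1.83, 11.5 and 13.8 in AF1 peptide replicates 1 to 4. Control replicates 2 to 4 were above all AF1 peptide mice, and control replicate 1 was below 3 of them. The value of AF1 peptide replicate 2 came from 1 read in the shallowest library (95% exact Poisson interval 0.0253 to 5.57 reads), and the other values from 13 to 23 reads. The mean of Ly6c2 was 18.4 ± 5.40 normalized counts in control mice and 9.82 ± 5.41 with AF1 peptide (SD, n = 4 each). This was the largest difference among the markers, with a log2 fold change of -1.04 and a 95% interval of -2.22 to 0.14 (standard error 0.53). In limma its unadjusted p value was 0.0793, with an adjusted p = 0.763 by the Benjamini-Hochberg method. Without AF1 peptide replicate 1 it was called lower (log2 fold change -1.21, unadjusted limma p value of 0.04999), and without AF1 peptide replicate 2 the log2 fold change was -0.47. Of the 50-base words of Ly6c2, 14.4% also occur in transcripts of other genes, so that its counts are uncertain. The neighboring copy Ly6c1 shares the most of these words. The mean of Ly6c1 was 12.8 in control and 9.46 in AF1 peptide mice (log2 fold change -0.35, standard error 0.36).

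**Figure D2:**
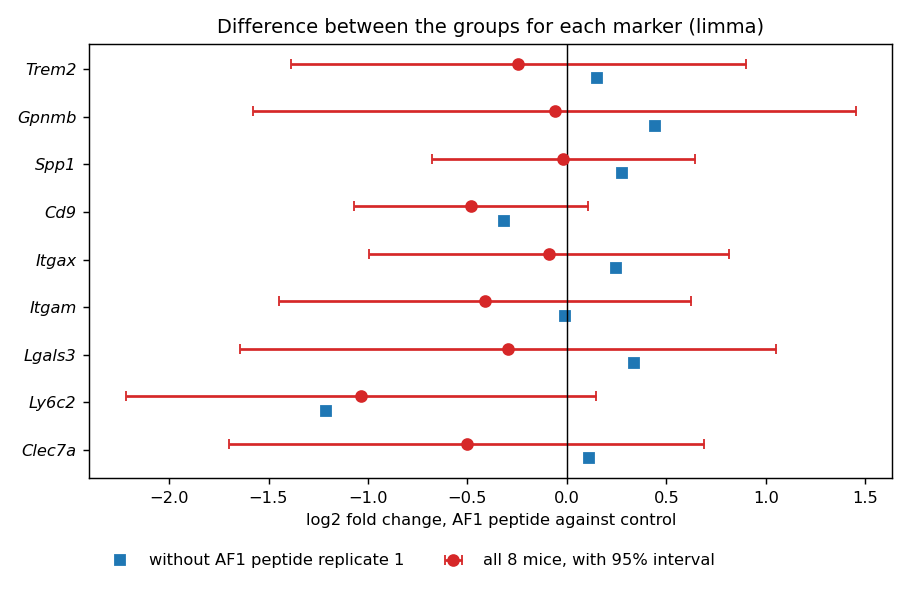
Log2 fold change (horizontal axis, AF1 peptide against control, limma on log2(normalized count + 1)) of each marker in all 8 mice, with its 95% interval (red circles), and without AF1 peptide replicate 1 (blue squares). All intervals include 0, and 6 of the 9 values are above 0 without this mouse.

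All 9 log2 fold changes were below 0, as were 51.8% of those of all genes tested, and their median was -0.30 (-0.0083 over all genes tested). This direction depended most on AF1 peptide replicate 1 and control replicate 2, the mice with the lowest and highest mean marker level. Of the fits that left out another mouse, 2 markers changed sign without AF1 peptide replicate 2 and 1 without control replicate 3. No marker changed sign in the remaining fits. Without AF1 peptide replicate 1, 3 of the 9 markers (Cd9, Itgam and Ly6c2) were below 0 and 6 above 0, and the median was 0.15 (-0.0036 over all genes tested). In that comparison the log2 fold change was 0.44 for Gpnmb, 0.34 for Lgals3, 0.28 for Spp1, 0.25 for Itgax and 0.15 for Trem2, and none of these 5 was called. Without control replicate 2, 5 of the 9 markers were above 0 (Gpnmb 0.49, Itgax 0.10, Spp1 0.09, Trem2 0.08 and Lgals3 0.02), and the median was 0.02 (-0.0080 over all genes tested).

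The spread between mice of the same group was wide for these genes. The SD of log2(normalized count + 1) within groups had a median of 0.86 over the 9 markers and of 0.24 over all genes tested. It was above that of 81.8 to 99.2% of all genes tested, and 7 of the 9 markers exceeded 0.60, the value that 10% of genes exceed. Genes were not matched by level in this comparison, and Ly6c2 and Itgam, which had few reads, are among these 7. The SD of every marker was larger among AF1 peptide mice than among control mice (9 of 9), as was that of 67.6% of all genes tested. Without AF1 peptide replicate 1, which was left out after its values were seen, the SD was larger with AF1 peptide for 6 of the 9 markers and for 48.6% of all genes tested, and smaller for Gpnmb (0.91), Lgals3 (0.72) and Clec7a (0.46). In all 8 mice, the SDs of Gpnmb were nearly the same (1.25 in both groups), while for Itgam they were 0.26 in control and 1.06 in AF1 peptide mice.

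**Figure D3:**
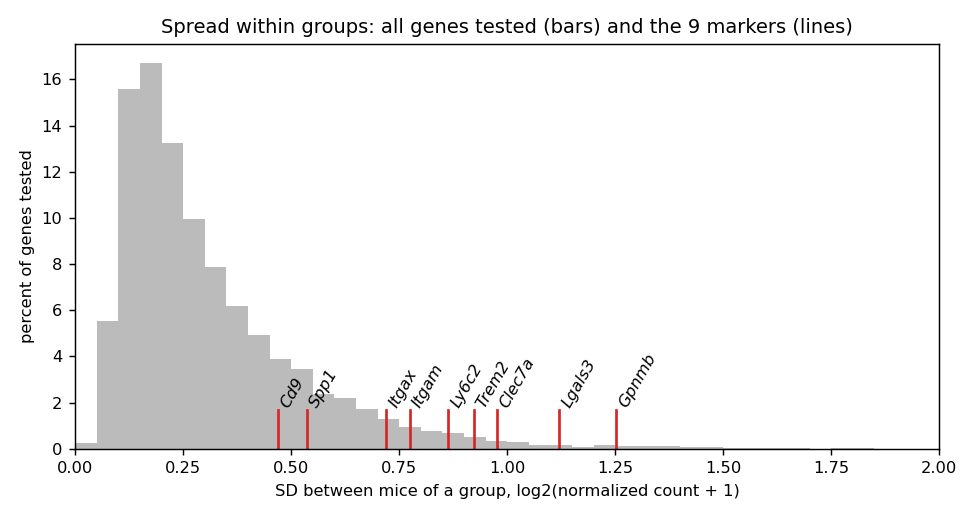
Distribution over all genes tested (grey bars, percent of genes) of the SD between mice of the same group on the log2(normalized count + 1) scale, with the 9 markers as red lines. The markers lie between 0.47 (Cd9) and 1.25 (Gpnmb), to the right of the median of 0.24, and 8 genes beyond 2 are not drawn.

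Except for Ly6c2, the markers ordered the mice in much the same way. The Pearson correlation with the mean standardised log2 level of the other markers was 0.38 for Ly6c2 and 0.82 to 0.97 for the rest. Ly6c2 had only 1 to 23 reads per library, so its order of mice is uncertain. AF1 peptide replicate 1 had the lowest count of the 8 mice in 8 of the 9 markers, and AF1 peptide replicate 2 in the remaining Ly6c2. AF1 peptide replicate 2 was among the 3 lowest mice in 8 markers and control replicate 1 in 7. At the other end, control replicate 2 was the highest mouse in 5 markers (Trem2, Gpnmb, Cd9, Lgals3 and Ly6c2), AF1 peptide replicate 3 in 3 (Itgax, Itgam and Clec7a) and AF1 peptide replicate 4 in Spp1. Each group thus held mice with high and mice with low levels of these transcripts. Of the mice with low levels, control replicate 1 had the deepest library (45117528 reads) and AF1 peptide replicate 2 the shallowest (23031880 reads).

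Per kilobase of exon, the order of the marker levels in control mice was Spp1 (767 ± 135 normalized counts per kb), Lgals3 (455 ± 242), Cd9 (302 ± 101), Clec7a (48.4 ± 15.2), Gpnmb (23.4 ± 21.7), Itgax (18.8 ± 7.25), Trem2 (15.0 ± 8.34), Ly6c2 (6.70 ± 1.97) and Itgam (5.03 ± 0.88; SD, n = 4 each). Spp1 was above Lgals3, Cd9 above Clec7a, Clec7a above Gpnmb and Trem2 above Ly6c2 in all 8 mice. Lgals3 was above Cd9 in 6, Itgax above Trem2 in 7 and Ly6c2 above Itgam in 6 of the 8 mice. Gpnmb was above Itgax in 4 of the 8 mice, so that these neighbors could not be ranked. The order of the mean levels was the same with AF1 peptide, except that Itgam (4.57 ± 3.58 per kb) was above Ly6c2 (3.58 ± 1.97 per kb; SD, n = 4). Exon lengths came from GENCODE M21, which may differ from the annotation used for counting.

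The levels of the markers varied between mice together with those of other macrophage genes and of some other cell types. The mean log2 value of the 9 markers was 6.53, 7.78, 7.24 and 7.03 in control replicates 1 to 4 and 5.74, 6.36, 7.71 and 7.37 in AF1 peptide replicates 1 to 4. The mean log2 value of 12 pan-macrophage genes, such as Adgre1 (F4/80), was 7.98, 8.47, 8.22 and 8.36 in control and 7.13, 8.05, 8.46 and 8.24 in AF1 peptide replicates 1 to 4. AF1 peptide replicate 1 was again lowest, and control replicate 2 and AF1 peptide replicate 3 highest. The markers minus the pan-macrophage genes ranged from -1.44 to -0.69 in control and from -1.69 to -0.74 in AF1 peptide mice. In AF1 peptide replicate 1 this difference was -1.40, inside the range of control mice. Relative to 10 genes of resident Kupffer cells, the markers ranged from -1.88 to -0.58 in control and from -2.17 to -0.87 in AF1 peptide mice, with the highest values again in control replicate 2 and AF1 peptide replicate 3. Relative to the pan-macrophage genes, the group difference was 0.04 for Trem2, -0.01 for Lgals3 and -0.75 for Ly6c2. The SDs in control and AF1 peptide mice were 0.57 and 0.64 for Trem2, 0.59 and 0.83 for Lgals3, and 0.30 and 1.31 for Ly6c2. These differences were not tested. Lists of other cells also varied between these mice. The summed normalized count of 9 hepatic stellate cell genes was 6623, 8120, 6258 and 5376 in control and 4126, 5001, 9370 and 9529 in AF1 peptide replicates 1 to 4. It was lowest in AF1 peptide replicate 1 and then replicate 2, as was the mean level of the markers, and highest in AF1 peptide replicates 4 and 3. The sums of endothelial genes (6445 in AF1 peptide replicate 1, 6854 to 8221 in all other mice) and of B and plasma cell genes (104.5, against 114.8 to 219.9) were lowest in the same mouse. Other sums were not. That of monocyte and recruitment genes was highest in AF1 peptide replicate 1 (19647, against 15954 to 18546 in all other mice). The mean log2 value of this list was lowest there (6.35). The sums of platelet genes (343, against 268 to 372) and of T and NK cell genes (136, against 99.7 to 210) lay inside the range of the other mice. The part of these levels in the marker values was not tested.

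**Figure D4:**
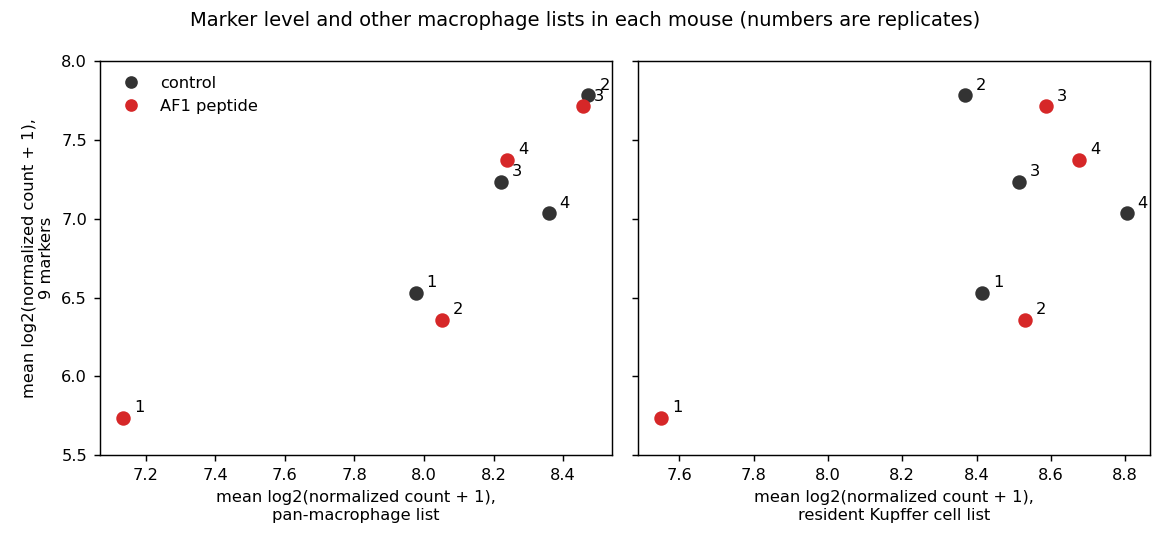
Mean log2(normalized count + 1) of the 9 markers (vertical axis) against that of the pan-macrophage genes (left) and the resident Kupffer cell genes (right), with 1 point per mouse numbered by replicate, control in black and AF1 peptide in red. AF1 peptide replicate 1 is lowest on all 3 measures, and control replicate 2 and AF1 peptide replicate 3 are the highest on the markers and on the pan-macrophage genes.

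Genes that act with the markers were read from the same fit. Over 16 lists, 161 of 198 different genes could be tested, of which 4 were called lower with AF1 peptide (2.48%, where 1.9% of all genes tested were called lower) and 0 higher (1.79% of all genes tested). The 4 genes were Cd81, Anxa5, Adgre1 and Dcn. This count depended on single mice, being 2 without control replicate 2 or control replicate 4, 9 without AF1 peptide replicate 1 (7 lower and 2 higher), 13 without AF1 peptide replicate 3 and 8 without AF1 peptide replicate 4. Over all 15989 genes tested, the calls in these fits also varied, being 371, 535, 948, 696 and 834 in the order named, against 590 with all 8 mice. Adgre1 was not called without AF1 peptide replicate 1, control replicate 2 or control replicate 4, and Dcn was not called without control replicate 1, 2 or 4 or AF1 peptide replicate 2.

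Of 16 partners and signalling genes of the markers, 1 was called lower and 0 higher, and the median log2 fold change was -0.18, or 0.07 without AF1 peptide replicate 1. Cd81, a tetraspanin related to Cd9, fell from 1556 to 1143 normalized counts on average (log2 fold change -0.45, standard error 0.16), and an antisense gene model overlaps it. Bcl10, the adaptor downstream of Dectin-1, had an unadjusted limma p value of 0.00959 with a change of less than 1.3-fold (log2 fold change -0.32). The direct partners, named here after their values were seen, included Tyrobp, the signalling adaptor of TREM2 (485 and 461 normalized counts on average in control and AF1 peptide mice, log2 fold change -0.22, standard error 0.35), and Itgb2, the β2 chain of both integrins (194 and 158 normalized counts, -0.33, standard error 0.25). Neither passed the test.

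Of 38 genes of the lipid-associated macrophage program, which take up and break down lipid, 36 were tested, 1 was called lower and 0 higher. In 35 of the 36 the log2 fold change was below 0, with a median of -0.21 (51.8% below 0 and a median of -0.0083 over all genes tested). Without AF1 peptide replicate 1 the median was -0.10, with 3 called lower and 0 higher. In that fit 491 of all 15989 genes tested were called lower and 457 higher. Many of these genes are also expressed by hepatocytes. Anxa5, which binds phosphatidylserine, fell from 3584 to 2363 normalized counts on average (log2 fold change -0.60, standard error 0.19), and by 0.44 on the log2 scale without AF1 peptide replicate 1. The lipase gene Pla2g7 (-0.78, standard error 0.39) and the fatty acid receptor Cd36 (-0.33, standard error 0.17) came next by p value and did not pass.

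Of 24 genes of monocytes and their recruitment, 19 were tested and 0 were called in either direction (median log2 fold change -0.16, or 0.03 without AF1 peptide replicate 1). The log2 fold changes of Lyz2, which encodes lysozyme, and Treml4, a receptor of the TREM family, were -0.57 and -0.65 with standard errors of 0.29 and 0.35. Neither passed the test. Of 15 macrophage transcription factors, 0 were called (median -0.05). When AF1 peptide replicate 1 was left out, 1 was called lower and the median was 0.07. Irf8, a factor of monocytes and dendritic cells, had the smallest p value of this list in all 8 mice, its log2 fold change being 0.30 (standard error 0.18).

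Among cell type markers, the pan-macrophage list had 1 of 12 genes called lower (Adgre1, from 68.4 ± 18.7 to 42.9 ± 10.7 normalized counts, SD, n = 4, log2 fold change -0.66, standard error 0.27), and the Kupffer cell list 0 of 10. The median log2 fold changes of these lists were -0.28 and -0.16, and 0.01 and 0.04 without AF1 peptide replicate 1. In the fit without this mouse, 1 Kupffer cell gene was called higher and 0 pan-macrophage genes were called. The summed normalized count of the pan-macrophage genes was 5239 to 6587 in control and 3778 to 7034 in AF1 peptide mice, and that of the Kupffer cell genes was 6570.3 to 8441 and 3833 to 7610.2. Both sums were lowest in AF1 peptide replicate 1, and among the other AF1 peptide mice they were 5582 to 7034 and 7160 to 7610.2. For the cells that share single markers, 0 of 7 dendritic cell genes tested, 0 of 3 neutrophil genes and 0 of 5 biliary genes were called. Their summed counts were 437 to 548 and 398 to 685 for dendritic cells, 177 to 252 and 81.2 to 312 for neutrophils, and 162 to 289 and 161 to 278 for biliary epithelium, in control and AF1 peptide mice. All 3 sums were lowest in AF1 peptide replicate 1, and the part of these cells in the marker counts was not tested. Mpo, Elane and the granule gene Camp, which define immature neutrophils, averaged under 10 normalized counts and were not tested. The same held for Cxcr2, Retnlg, Mmp8, Ngp and Ltf, and Ly6g had no entry. The neutrophil genes tested were Csf3r, S100a8 and S100a9. The median log2 fold changes of these 3 lists were -3.5e-05, -0.18 and 0.13, and 0.27, 0.16 and 0.31 without AF1 peptide replicate 1. None of the tested genes of T and NK cells (7), B and plasma cells (6), platelets (3), endothelium (8), adipocytes (1) or hepatocytes (8) was called in either direction by limma, with median log2 fold changes of -0.12, -0.29, 0.23, -0.10, -0.98 and -0.03. These medians were, when AF1 peptide replicate 1 was left out, -0.02, 0.06, 0.39, -0.04, -0.40 and -0.16, and 1 hepatocyte gene was called lower. Of 9 hepatic stellate cell genes, 1 was called lower, Dcn, which encodes the matrix proteoglycan decorin (log2 fold change -0.42, standard error 0.18). The median of the list was 0.06. It was 0.24 when AF1 peptide replicate 1 was left out, and Acta2, the smooth muscle actin of activated stellate cells, was then called higher (log2 fold change 0.73, unadjusted limma p value of 0.0262) beside Dcn.

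The genes whose levels over the 8 mice were most like the mean standardised level of the markers were sought among 12436 other genes whose normalized counts averaged 50 or more. They were Csf2rb, the shared β chain of the GM-CSF and IL-3 receptors (Pearson r = 0.988, Spearman rho = 0.976), and Gltp, a glycolipid transfer protein (r = 0.981, rho = 0.976). Arhgap25 (r = 0.972), Bcl2a1b (0.968), the pseudogene Gpr137b-ps (0.966) and Sh3kbp1 (0.963) were also among the most alike. Without the 2 mice farthest from the median of the marker level, AF1 peptide replicates 1 and 2, r was 0.959 for Csf2rb and 0.943 for Gltp. These 6 genes were lowest in AF1 peptide replicate 1 and highest in control replicate 2 or AF1 peptide replicate 3, with Csf2rb at 105 to 223 and Gltp at 78.4 to 239 normalized counts. They were picked for this likeness and the points share 1 library per mouse, so no p value is given. Bcl2a1b belongs to a cluster of near-identical genes and its reads are uncertain.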

How the data were processed

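The authors trimmed the reads of stranded mRNA libraries with Trim Galore 0.6.7, aligned them with HISAT2 to the mouse genome (mm39 in the submitters' processing notes), sorted the alignments using SAMtools 1.17 and took counts from GenomicAlignments. The use of strand, the annotation and the normalization tool are not given in the sources used here. The deposited values are a signal, the normalized read count per gene and mouse, that is whole reads divided by 1 size factor per library. All 172256 values (100%) came out whole within 0.01 of a read, the size factors were equal to median-of-ratios factors, and replicates were not pooled. All 8 columns of values were used.

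Control and AF1 peptide groups followed the sample labels. limma 3.58.1 (R 4.3.3, with a trend of the variance) was run on log2(normalized count + 1) for the 15989 genes averaging 10 or more, and p values were adjusted by the Benjamini-Hochberg method over all of them. A call needed p below 0.05 before adjustment together with a change above 1.3-fold. edgeR 4.0.16 and DESeq2 1.42.0 were run on the recovered reads. All were tested on simulated counts. Other alternatives were pseudocounts of 0.5 and 5, no filter, TMM or equal-total scaling, limma without trend, a replicate block and each mouse left out in turn. The markers and gene lists were chosen with earlier results of these data known. Named genes are the 9 markers, the 3 smallest p values and all calls of each list, and the 8 genes most alike, of which some are not reported here. 50-base words and exon lengths came from GENCODE M21 (GRCm38), and no coordinates of the table's own build are given. The precision is limited by the spread between mice and, for Ly6c2 and Itgam, by few reads.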

Additional observations from a re-analysis of the deposited data

Results flagged for a closer look

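Dixon's test at the 95% level was applied to the extreme mice of each group of 4, for each marker, the summed count of each gene list, the depth and the mitochondrial share. Its statistic is the distance of an extreme mouse from its neighbor as a share of the whole range. The critical value was passed in 6 of 54 groups, where chance gives about 2.7, and the results are not independent, since they come from the same libraries.

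Control replicate 2 was apart as the highest control mouse in Cd9 (gap over range 0.866, 926 normalized counts), in the summed count of the partners and signalling genes (0.978) and in that of the lipid-associated macrophage program (0.855). It was the lowest control mouse in the summed count of B and plasma cell genes (0.925, 148 normalized counts). AF1 peptide replicate 1 was apart as the lowest AF1 peptide mouse in the summed count of resident Kupffer cell genes (0.881, 3833 normalized counts). Control replicate 1 had the deepest library of the control mice (0.857).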

How the results depend on the processing

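The markers called were 0 of 9 under each alternative except equal library totals (1, Cd9) and the fits with 1 mouse left out, which gave 0 to 1 (Ly6c2 without AF1 peptide replicate 1, Itgam without AF1 peptide replicate 3, Cd9 without AF1 peptide replicate 4, each lower). Over all genes, 590 were called (286 higher, 304 lower), 894 with no filter and 371 to 948 with 1 mouse left out (lowest without control replicate 2, highest without AF1 peptide replicate 1). With equal library totals 724 were called, of which 16.9% were higher in place of 48.5%, and the median log2 fold change of all genes moved from -0.01 to -0.10. The listed genes called were 4, and 2 to 13 with 1 mouse left out. Mice with the same replicate number are different animals, and their deviations from the group means correlated by 0.235, 0.0238, 0.217 and -0.064 over genes, so the numbers were not taken as pairs. With the replicate number as a block, 733 genes, 0 markers and 12 listed genes were called. The log2 fold change changed its sign in edgeR and DESeq2 for Spp1 (0.096 and 0.096) and Itgax (0.032 and 0.019). The edgeR values were closer to 0 by over 1.5 times for Trem2 (-0.05), Itgam (-0.09), Lgals3 (-0.03) and Clec7a (-0.23), and so were those of DESeq2 (-0.08, -0.11, -0.04 and -0.23). In DESeq2 Gpnmb was further from 0 (-0.10). With 1 mouse left out it ranged from -0.64 to 0.15 for Trem2, from -0.52 to 0.49 for Gpnmb, from -0.27 to 0.28 for Spp1, from -0.42 to 0.25 for Itgax, from -0.71 to 0.34 for Lgals3 and from -0.82 to 0.11 for Clec7a. It stayed below 0 in all of these fits for Cd9 (-0.66 to -0.27), Itgam (-0.86 to -0.01) and Ly6c2 (-1.27 to -0.47). The causes of these changes were not tested.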
